A study of Mus musculus with 9 samples.

Results

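Antigen presentation genes were followed across 9 arrays of mouse neck skin: the genes of the mouse major histocompatibility complex (MHC), whose symbols start with H2-, and named genes that supply peptides to MHC molecules, load them or switch them on. The rule took every symbol starting with H2- and 23 further genes, kept symbols that stand alone on a transcript cluster (the array's unit for one transcript), and used the brightest cluster per symbol. It gave 58 of the 30142 genes measured in this way, 38 of the class I pathway, 17 of the class II pathway and 3 of neither (Cd1d1, Mr1 and H2-Ke6). The invariant chain Cd74, the class I transactivator Nlrc5 and the proteasome activator Psme2 lie only on clusters with several symbols and were not analysed here as members. Of the 58, 43 map to chromosome 17 in the RefSeq mouse table, and RefSeq lists 8 as pseudogenes (H2-Bl, H2-Ea, H2-K2, H2-M6-ps, H2-Pa, H2-Pb, H2-Q3 and H2-T10).

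All mice were C57BL/6 males aged 6 to 8 weeks, with 3 arrays per group. Urushiol skin (urushiol is the allergenic oil of poison ivy) and oxazolone skin (oxazolone is a synthetic hapten, a small reactive chemical) came from mice sensitised with 2% of that allergen on the shaved abdomen and, 5 days later, challenged on the shaved nape with 0.5% in 40 µl of acetone. Each mouse had 5 challenges up to day 8 and gave its skin 4 hours after the last one, which makes both groups models of allergic contact dermatitis. Control skin was labelled healthy, and the sources used here do not say whether control mice were shaved, painted with acetone or anaesthetised, so these steps and the allergens cannot be told apart against control. Total RNA of the whole tissue was measured, so fewer cells of a type and less RNA per cell cannot be told apart in any result.

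Class I molecules stand on nearly all nucleated cells and show peptides from the cytosol to CD8 T cells. The immunoproteasome cuts the peptides, the TAP transporter carries them into the endoplasmic reticulum, and chaperones load them onto a heavy chain paired with beta 2-microglobulin. Class II molecules, made mainly by dendritic cells, macrophages and B cells, show peptides from endosomes to CD4 T cells, after proteases have cut the invariant chain and H2-DM has exchanged its remnant for a peptide. Interferon gamma is the best known inducer of both pathways, class I partly through interferon response elements in the promoters, class II through the transactivator Ciita, which joins a complex of RFX and NF-Y factors on the promoter.

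RefSeq promoter windows of build GRCm38.p6 were found for 43 of the 58 members. The 250 bases before the transcription start were searched for motifs of these factors. Single motifs were searched on both strands, and the pair of RFX and Y box motifs only on the gene's strand, in that order. The combination of the RFX half-site GCAAC followed by the Y box core ATTGG, 15 to 45 bases apart, was found for 5 of 8 class II chains (H2-Aa, H2-Eb1, H2-Eb2, H2-Oa and H2-Ob), for 0 of 29 class I members and for 0.688% of all 27025 promoters. The class I form of the interferon response element, GAAGTGAAA, was found for 5 of 29 class I members (H2-K1, H2-D1, H2-Q4, H2-Q10 and H2-M3), for 0 of 12 class II members and for 0.477% of all promoters. The general form, GAAA and GAAA with 2 bases of any kind between them, shares no match with the class I form. It was found for 2 of 43 members (4.65%), B2m and Ctss, and for 3.46% of all promoters. The GAS motif TTCNNNGAA, where N is any base, was found for 4 of 43 members (9.3%) and for 8.13% of all promoters. Both member shares were near those of all promoters. ATTGG, counted without regard to the pair, occurred in 37.5% of all promoters, 23 of 29 class I members (79.3%) and 9 of 12 class II members (75%). GCAAC, counted in the same way, occurred in 33% of all promoters, 6 of 29 class I members (20.7%) and 8 of 12 class II members (66.7%). These matches describe letters in the windows.

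Promoters of both classes are shown so that the class II pair of motifs can be set beside the class I element, with the motif in capitals and each sequence written 5′ to 3′ on the gene's strand. In H2-Aa (chr17:34287824-34288073, minus strand) and H2-Eb1 (chr17:34305617-34305866, plus strand) the capitals mark GCAAC and ATTGG. In H2-D1 (chr17:35262844-35263093, plus strand) they mark the class I element read from the other strand, and in B2m (chr2:122147437-122147686, plus strand) and Ctss (chr3:95526536-95526785, plus strand) the general element. The last sequence (chr17:34187331-34187555, plus strand) is the whole interval between the starts of Tap1 and Psmb9, which are transcribed away from each other, and it holds neither interferon element.
H2-Aa: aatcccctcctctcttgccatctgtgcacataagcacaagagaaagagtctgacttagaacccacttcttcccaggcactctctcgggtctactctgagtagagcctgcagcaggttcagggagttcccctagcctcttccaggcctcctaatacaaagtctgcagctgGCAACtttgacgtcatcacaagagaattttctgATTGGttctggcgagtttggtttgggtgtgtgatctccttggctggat
H2-Eb1: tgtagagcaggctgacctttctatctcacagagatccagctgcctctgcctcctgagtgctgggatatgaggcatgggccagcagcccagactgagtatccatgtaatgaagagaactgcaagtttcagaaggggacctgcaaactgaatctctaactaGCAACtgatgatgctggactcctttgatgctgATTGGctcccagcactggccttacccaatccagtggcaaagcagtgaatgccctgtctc
H2-D1: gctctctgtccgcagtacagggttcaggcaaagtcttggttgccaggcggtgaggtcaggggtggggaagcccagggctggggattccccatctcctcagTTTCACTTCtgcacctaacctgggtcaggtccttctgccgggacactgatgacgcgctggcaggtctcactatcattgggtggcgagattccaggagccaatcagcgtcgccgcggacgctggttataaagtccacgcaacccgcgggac
B2m: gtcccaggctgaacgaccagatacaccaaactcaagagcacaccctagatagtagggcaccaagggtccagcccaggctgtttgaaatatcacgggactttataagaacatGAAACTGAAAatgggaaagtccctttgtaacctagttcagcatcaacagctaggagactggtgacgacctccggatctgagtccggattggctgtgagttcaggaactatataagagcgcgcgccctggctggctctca
Ctss: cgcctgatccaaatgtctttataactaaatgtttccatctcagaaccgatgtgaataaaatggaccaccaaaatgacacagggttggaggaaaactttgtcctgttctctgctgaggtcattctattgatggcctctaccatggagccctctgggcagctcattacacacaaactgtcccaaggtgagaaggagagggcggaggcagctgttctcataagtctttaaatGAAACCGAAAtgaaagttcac
Tap1 and Psmb9 interval: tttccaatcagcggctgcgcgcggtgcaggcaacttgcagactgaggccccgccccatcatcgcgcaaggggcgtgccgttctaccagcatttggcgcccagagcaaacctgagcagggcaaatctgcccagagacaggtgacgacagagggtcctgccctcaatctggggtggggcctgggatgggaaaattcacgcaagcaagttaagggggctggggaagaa

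Values are log2 expression, and they reach 19.93 although a 16-bit scanner ends at log2 16, so a log2 difference here may not equal the log2 ratio of RNA amounts. The sign ± gives the standard error of a difference between groups of n = 3 arrays, and a gene is called where limma's p-value, adjusted over all 30142 genes by the Benjamini-Hochberg method, is below 0.05. Array medians over all clusters lay between 5.53 and 5.64, and 42 members had a mean over the 9 arrays above the median of all clusters. The other 16 lay below it: 6 H2-M10 genes, H2-M1 and H2-M11, H2-M6-ps, H2-Q1, H2-Ea, H2-Eb2, H2-Oa, H2-Ob, H2-Pa and H2-Pb. These genes differed by at most 0.36 log2 units in any comparison and gave no call (without control array 3, H2-Ea was called higher in urushiol and H2-M6-ps lower with both allergens). Control array 3 stood apart from control arrays 1 and 2, with which it correlated at 0.978 to 0.979 across genes, against 0.995 between those arrays. The mean log2 level of 4 skeletal muscle markers was 11.8 to 13.0 in urushiol skin, 7.76 to 9.80 in oxazolone skin and 16.35 to 18.25 in control skin, and that of 5 hair follicle markers was 11.1 to 12.2 in urushiol, 12.0 to 14.7 in oxazolone and 6.08, 6.37 and 13.1 on control arrays 1, 2 and 3. Control array 3 was thus far above the other controls in hair follicle markers and the lowest control in muscle markers, at 16.35 against 18.25 and 18.08. The 5 keratinocyte markers averaged 17.4 to 17.7 in urushiol, 17.04 to 17.57 in oxazolone and 16.1 to 16.8 in control skin. The 5 neutrophil markers averaged 11.5 to 12.7, 11.2 to 11.5 and 6.57 to 7.12 in these groups, with 4 higher for each allergen, and the 3 fibroblast markers 14.5 to 15.8, 14.6 to 15.5 and 16.1 to 16.3, with 2 lower for each. The part of these tissue shares in the members' differences was not tested.

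In urushiol skin the class II chains H2-Ab1, H2-Eb1, H2-DMb1 and H2-DMb2 fell below control skin, and the protein-folding chaperones Calr, Canx and Pdia3 and the proteases Ctsl and Ctss rose. In oxazolone skin the peptide suppliers Tap1, Erap1 and Psme1, the heavy chain gene H2-Q3 and the same proteases rose, and H2-DMa and H2-DMb2 fell. H2-M2, H2-M5 and Mr1 fell in both. By limma, 5 members were higher and 8 lower in urushiol than in control skin, 22.4% of the 58, where 16.4% of all genes were called (9.96% higher and 6.43% lower). Between oxazolone and control skin 6 were higher and 5 lower, 19% of the members against 16.6% of all genes (9.63% higher and 6.92% lower). Among genes above the median of clusters the shares were 31.0% of members against 26.3% for urushiol and 26.2% against 26.3% for oxazolone, so the number of calls in oxazolone skin was near that of other genes of such brightness. An unadjusted p under 0.05 was reached by 21 members for urushiol (36.2%, against 32.2% of all genes) and 27 for oxazolone (46.6%, against 34.1%), so the urushiol count was near that of all genes.

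These counts rest on few arrays. Fits that dropped control array 1 left 1 member higher and 2 lower for oxazolone, and 1 higher and 4 lower for urushiol. Fits that dropped control array 2 left 2 and 2 for oxazolone, and 2 and 3 for urushiol. When control array 3 was dropped, oxazolone had 8 members lower. Dropping oxazolone array 1 gave 2 higher and 2 lower for oxazolone, dropping its array 2 gave 10 and 3, and dropping its array 3 gave 3 lower. Dropping urushiol array 1 gave 1 higher and 5 lower for urushiol and 3 higher for oxazolone. Dropping urushiol array 2 gave 2 higher and 3 lower for urushiol and 3 higher for oxazolone, and dropping urushiol array 3 gave 1 and 4 for urushiol and 2 and 3 for oxazolone. Fitted with its 2 groups alone, oxazolone against control lost the calls of Erap1, Tap1, Psme1, H2-Q3, H2-DMa and H2-DMb2. Urushiol against control, fitted in the same way, lost those of Canx, Pdia3 and H2-Ke6 but had 14 members lower. The added lower calls were Tap1, Tap2, Tapbp, H2-T10, H2-Q4, H2-M3 and Ciita (adjusted p = 0.018, 0.0306, 0.014, 0.00903, 0.0432, 0.0473 and 0.0397). The calls of H2-M2, Mr1 and Ctsl against both allergens, and of H2-M5 for urushiol, were made in every fit that left out 1 array and in every other setting tried.

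**Figure D1:**
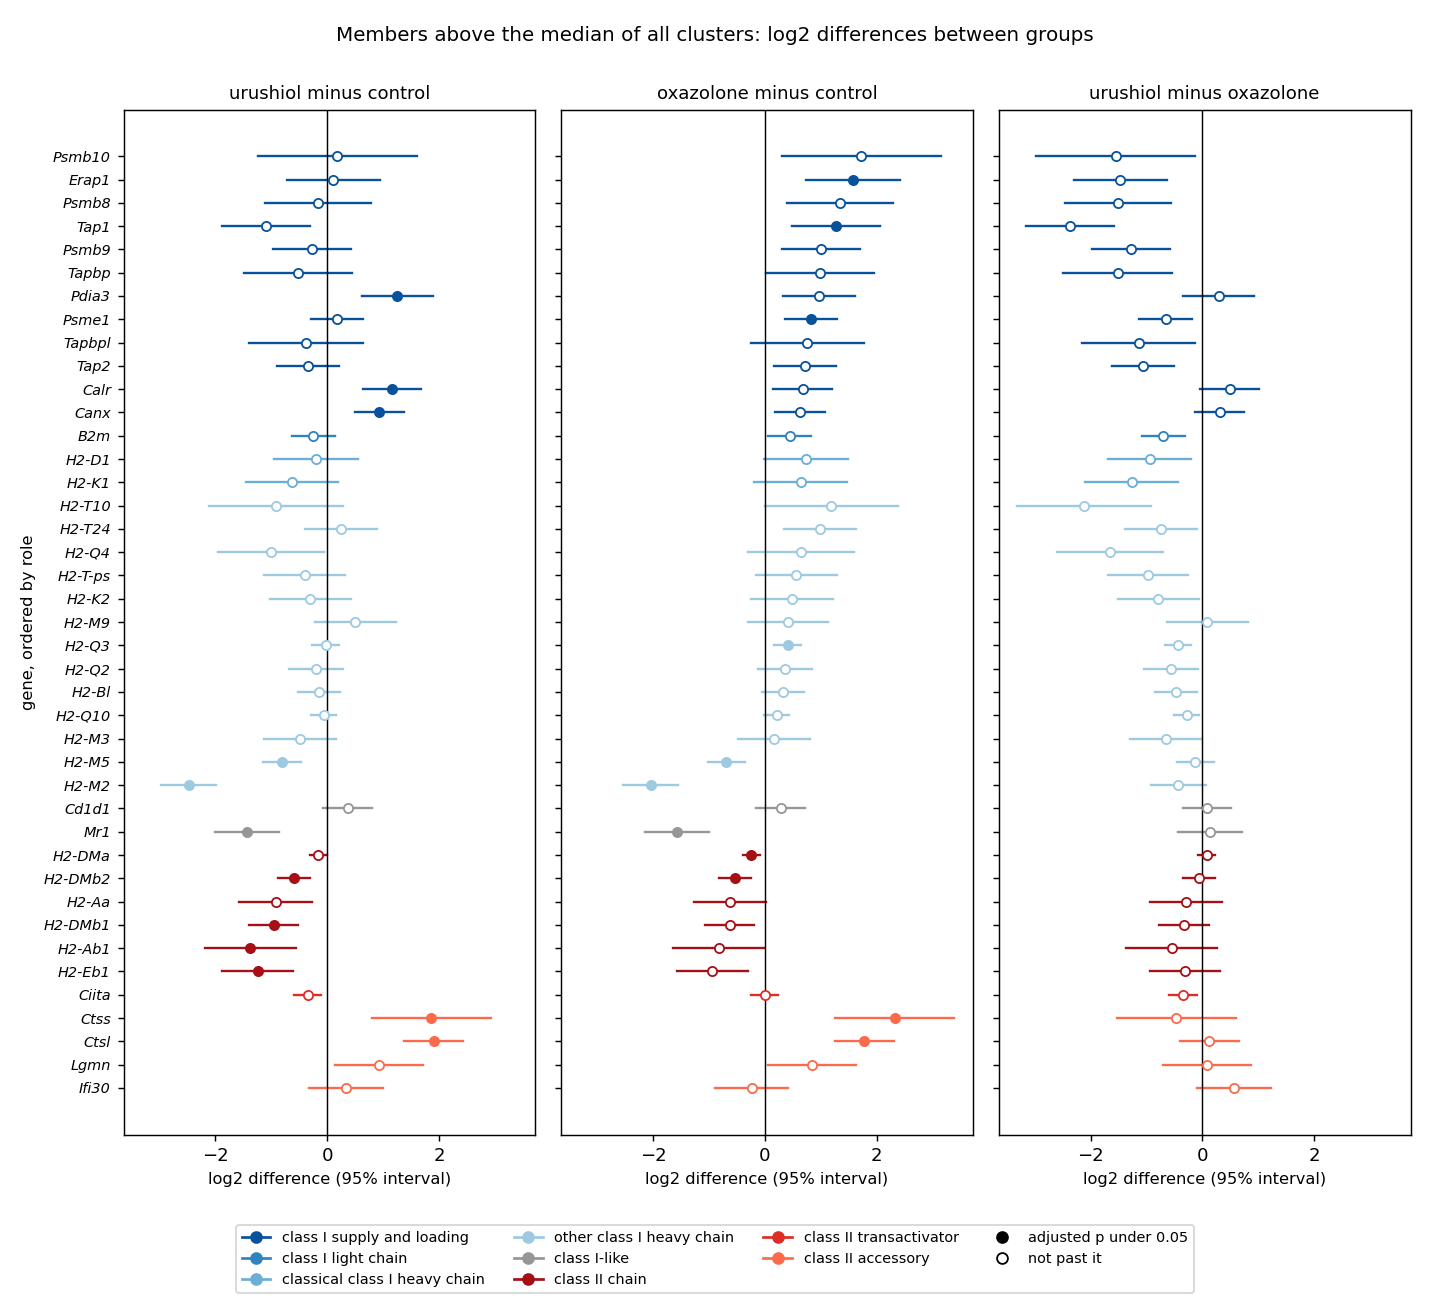
Log2 differences (points) with 95% intervals (lines) for members above the median of all clusters other than H2-Ke6, in 3 panels for urushiol minus control, oxazolone minus control and urushiol minus oxazolone, with filled points for an adjusted p below 0.05. Most class I suppliers and heavy chains lie right of 0 in the oxazolone panel and left of 0 in the panel of urushiol minus oxazolone, where no point is filled, while class II chains lie left of 0 in both panels against control.

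The 3 immunoproteasome subunits lay higher on every oxazolone array than in control and urushiol skin, but none passed the test. Psmb8, the LMP7 subunit, lay at 6.61, 6.31 and 6.64 in urushiol skin, 7.92, 7.18 and 9.0 in oxazolone skin and 6.62, 6.69 and 6.75 in control skin. Psmb9, the LMP2 subunit, lay at 5.62, 5.82 and 5.82 in urushiol, 6.85, 6.47 and 7.77 in oxazolone and 6.05, 6.02 and 6.01 in control skin. Psmb10, the MECL-1 subunit, lay at 7.46, 7.08 and 7.35 in urushiol, 8.34, 7.78 and 10.41 in oxazolone and 7.16, 7.15 and 7.04 in control skin. Oxazolone array 3 was the highest in each gene, and the urushiol arrays of Psmb9 lay below the controls. Against control, oxazolone skin differed by 1.35 ± 0.40 (adjusted p = 0.0624) in Psmb8, 1.0 ± 0.29 (adjusted p = 0.0583) in Psmb9 and 1.73 ± 0.60 (adjusted p = 0.0926) in Psmb10. Without oxazolone array 2 Psmb8 was called (adjusted p = 0.0215), without oxazolone array 3 Psmb10 (adjusted p = 0.0364), and without either of them Psmb9 (adjusted p = 0.0322 and 0.0342). The interval of urushiol minus control was -1.12 to 0.79 for Psmb8, -0.97 to 0.42 for Psmb9 and -1.24 to 1.60 for Psmb10. Psme1, a subunit of the PA28 activator that opens the proteasome, rose in oxazolone skin by 0.83 ± 0.20 (adjusted p = 0.0334). It lay at 9.21, 8.97 and 9.23 in urushiol, 9.73, 9.43 and 10.22 in oxazolone and 9.13, 8.78 and 8.98 in control skin. Only the fits that dropped control array 3 or oxazolone array 2 kept the Psme1 call, and adjusted p reached 0.11 in the others.

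Of 8 genes of the constitutive proteasome and its other regulators, 3 were higher in urushiol and 2 in oxazolone skin and none was lower. Psma1, a subunit of the outer ring, rose by 0.99 ± 0.22 in urushiol and 0.96 ± 0.22 in oxazolone skin, and the assembly factor Pomp by 0.57 ± 0.14 and 0.98 ± 0.14. Psme3, the PA28 gamma regulator, rose by 0.70 ± 0.18 in urushiol skin. Psmb6, whose subunit Psmb9 replaces in the immunoproteasome, differed from control by 0.62 ± 0.18 in urushiol and by 0.36 ± 0.18 in oxazolone skin and was not called.

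Tap1 carried the widest gap between the allergens. Tap1, one of the chains of the peptide transporter, lay at 8.25, 8.10 and 8.33 in urushiol skin, 10.27, 10.08 and 11.43 in oxazolone skin and 9.08, 9.40 and 9.50 in control skin, so all 3 groups were apart from each other. It rose in oxazolone skin by 1.27 ± 0.33 (adjusted p = 0.0434), differed from control by -1.10 ± 0.33 in urushiol skin (adjusted p = 0.0662) and by -2.37 ± 0.33 between urushiol and oxazolone skin (unadjusted p = 0.000175, adjusted p = 0.11). Among fits that dropped 1 array, only those without oxazolone array 2 or 3 kept the oxazolone call of Tap1, and adjusted p reached 0.128 in the others. Median centring lost it too. Tap1 was called lower in urushiol than in control skin with the filter on dim genes (adjusted p = 0.0382) and after quantile renormalisation (0.0416). Without oxazolone array 3, the highest, Tap1 was called lower in urushiol than in control skin (adjusted p = 0.00676) and than in oxazolone skin (adjusted p = 0.0122).

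The partner chain Tap2 kept the same order, with 6.57, 6.62 and 6.58 in urushiol, 7.41, 7.27 and 8.26 in oxazolone and 6.83, 6.98 and 6.98 in control skin. Tapbp (tapasin), which tethers the empty class I molecule to TAP, lay at 8.27, 8.45 and 8.39, then 9.48, 9.21 and 10.97, then 8.88, 8.92 and 8.88 in the same order of groups. Its relative Tapbpl, a peptide editor that works away from TAP, lay at 7.43, 7.20 and 7.48 in urushiol, 8.04, 7.85 and 9.64 in oxazolone and 7.66, 7.75 and 7.83 in control skin. In Tap2, Tapbp and Tapbpl, as in Tap1 and Psmb9, every urushiol array was below and every oxazolone array above the controls. With H2-T10 these were 6 members, 10.3% of the 58, where 0.126% of all genes (38 of 30142) lay on opposite sides of the controls in this way. The lowest oxazolone array barely passed the highest control in Tapbpl (7.85 against 7.83) and H2-T10 (8.34 against 8.32). These gaps were smaller than the spread of array medians, 5.53 to 5.64. The count was not repeated after quantile renormalisation or median centring. Urushiol minus oxazolone was -1.06 ± 0.24, -1.52 ± 0.41 and -1.14 ± 0.43 for Tap2, Tapbp and Tapbpl, with adjusted p of 0.358, 0.491 and 0.784. Without oxazolone array 3 Tap2 and Tapbp were called between the allergens (adjusted p = 0.0235 and 0.0264). In that fit both were also lower in urushiol than in control skin (adjusted p = 0.0223 and 0.0158). They were higher in oxazolone than in control skin there (adjusted p = 0.0237 and 0.0401). The filter on dim genes also called Tap2 higher in oxazolone than in control skin (adjusted p = 0.0494).

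Erap1, the aminopeptidase that trims peptides in the endoplasmic reticulum, rose in oxazolone skin by 1.58 ± 0.36 (adjusted p = 0.0279). It lay at 10.42, 9.87 and 10.42 in urushiol, 11.46, 11.10 and 12.55 in oxazolone and 10.19, 10.06 and 10.13 in control skin, with the urushiol arrays overlapping the controls. The call did not hold when urushiol array 3, oxazolone array 1, control array 1 or control array 2 was dropped, at adjusted p up to 0.088.

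The general chaperones of the loading complex rose in urushiol skin. Calreticulin (Calr) lay at 14.33, 14.43 and 14.38 in urushiol, 13.99, 13.52 and 14.17 in oxazolone and 13.14, 12.88 and 13.63 in control skin. Calnexin (Canx) lay at 15.26, 15.11 and 15.07, at 14.95, 14.68 and 14.89 and at 14.21, 13.82 and 14.61 in these groups, and Pdia3 (ERp57), a disulfide isomerase bound to tapasin, at 15.30, 15.17 and 15.20, at 15.14, 14.53 and 15.13 and at 13.95, 13.46 and 14.49. All urushiol arrays were above all oxazolone and all control arrays, and control array 3 was the highest control each time. In urushiol skin the genes rose by 1.16 ± 0.22, 0.93 ± 0.19 and 1.26 ± 0.27 (adjusted p = 0.0159, 0.0192 and 0.0241), and in oxazolone skin they differed by 0.68 ± 0.22, 0.63 ± 0.19 and 0.97 ± 0.27 (adjusted p = 0.0787, 0.0624 and 0.052). Urushiol minus oxazolone had intervals of -0.04 to 1.01, -0.14 to 0.75 and -0.35 to 0.93. After quantile renormalisation none of the urushiol calls of Calr, Canx and Pdia3 remained, with adjusted p up to 0.109 for Canx. They were also lost without control array 1, urushiol array 1 or urushiol array 3, and for some of them without control array 2 or urushiol array 2. Without control array 3, the oxazolone differences of these chaperones were called too (adjusted p = 0.0182, 0.00721 and 0.0101). The filter on dim genes called these oxazolone differences as well (adjusted p = 0.049, 0.0387 and 0.0305).

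Of 5 other folding genes of the endoplasmic reticulum, 4 were higher in urushiol and 2 in oxazolone skin. The chaperone Hspa5 (BiP) rose by 2.09 ± 0.29 in urushiol and 1.38 ± 0.29 in oxazolone skin, and the isomerase Pdia6 by 1.45 ± 0.22 and 1.09 ± 0.22. Hsp90b1 and the translocon subunit Sec61a1 rose in urushiol skin by 1.16 ± 0.26 and 0.78 ± 0.15. Xbp1, a transcription factor of the unfolded protein response, differed by 0.29 ± 0.12 in urushiol and 0.13 ± 0.12 in oxazolone skin and was not called.

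**Figure D2:**
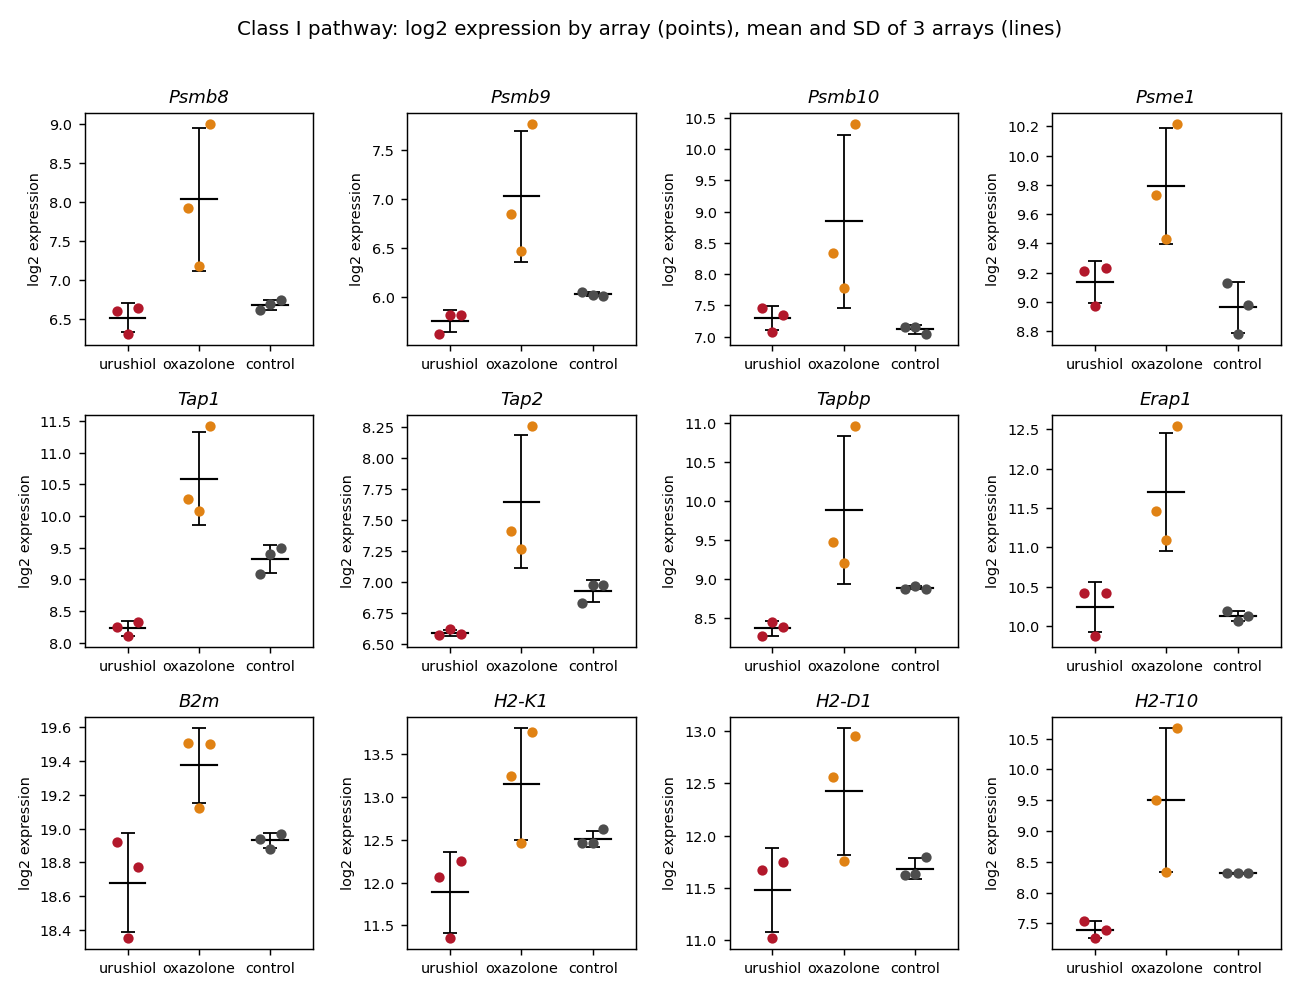
Log2 expression of 12 class I pathway genes on each array (points; urushiol, oxazolone and control from left to right, replicates 1 to 3 from left to right in each) with the mean and SD of 3 arrays. In each gene the urushiol arrays lie below the oxazolone arrays, and Tap1, Tap2, Tapbp, Psmb9 and H2-T10 have the controls between them, as with 9.08 to 9.50 for Tap1.

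Beta 2-microglobulin (B2m), the light chain of every classical class I molecule, lay at 18.92, 18.35 and 18.77 in urushiol, 19.51, 19.12 and 19.50 in oxazolone and 18.94, 18.88 and 18.97 in control skin. These levels are close to the top of the scale at 19.93, where differences may be compressed. The heavy chain H2-K1 lay at 12.06, 11.35 and 12.25 in urushiol, 13.24, 12.46 and 13.76 in oxazolone and 12.46, 12.46 and 12.62 in control skin. H2-D1 lay at 11.67, 11.02 and 11.75 in urushiol, 12.56, 11.76 and 12.95 in oxazolone and 11.62, 11.63 and 11.80 in control skin. Every urushiol array of these genes was below every oxazolone array, and for H2-K1 also below every control, while oxazolone array 2 lay within the control range of both heavy chains. Urushiol minus oxazolone was -0.70 ± 0.16 for B2m, -1.27 ± 0.35 for H2-K1 and -0.94 ± 0.32 for H2-D1, with adjusted p of 0.385, 0.507 and 0.695. Oxazolone minus control was 0.45 ± 0.16, 0.64 ± 0.35 and 0.74 ± 0.32 (adjusted p = 0.102, 0.246 and 0.15), and urushiol minus control -0.25 ± 0.16, -0.63 ± 0.35 and -0.20 ± 0.32 (adjusted p = 0.346, 0.274 and 0.724). Without oxazolone array 2 H2-D1 was called higher in oxazolone than in control skin (adjusted p = 0.0469). The H2-D1 cluster carries 2 gene identifiers, and class I heavy chain genes resemble each other closely, so their probes can share signal and the value of a single heavy chain gene is uncertain.

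Among 23 other class I heavy chain genes, 0 were higher and 2 lower in urushiol skin, and 1 was higher and 2 lower in oxazolone skin. The shares called were 8.7% for urushiol and 13% for oxazolone, below the 16.4% and 16.6% of all genes. H2-T10, which RefSeq lists as a transcribed pseudogene, lay at 7.54, 7.26 and 7.39 in urushiol, 9.50, 8.34 and 10.68 in oxazolone and 8.31, 8.32 and 8.31 in control skin. All groups of H2-T10 were apart, oxazolone array 2 by little from the controls, and urushiol minus oxazolone was -2.11 ± 0.51 (adjusted p = 0.403). Without oxazolone array 2 this difference and the one between oxazolone and control skin were called (adjusted p = 0.0478 and 0.0253). H2-Q4 lay at 8.64, 7.99 and 8.44 in urushiol, 9.79, 9.27 and 10.96 in oxazolone and 9.27, 9.35 and 9.44 in control skin, a difference between the allergens of -1.65 ± 0.40 (adjusted p = 0.403), and without oxazolone array 3 it was called lower in urushiol than in control skin (adjusted p = 0.0323). H2-T24 lay at 6.82, 6.82 and 6.75 in urushiol, 7.58, 6.90 and 8.14 in oxazolone and 6.57, 6.66 and 6.42 in control skin, highest on the oxazolone arrays. Its difference of 0.99 ± 0.27 between oxazolone and control skin had an adjusted p of 0.0503, just short of the threshold. The adjusted p was 0.00882 without oxazolone array 2, 0.0294 with the filter on dim genes and 0.0479 with a trended prior variance. H2-Q3, a pseudogene in RefSeq, was the heavy chain gene called higher, with 6.03, 5.98 and 5.93 in urushiol, 6.37, 6.35 and 6.53 in oxazolone and 6.05, 6.18 and 5.79 in control skin. It rose in oxazolone skin by 0.41 ± 0.10 (adjusted p = 0.0365), and only the fits that dropped control array 2 or 3 kept the call (adjusted p up to 0.105 in the others), while quantile renormalisation and median centring each lost it. Of the other heavy chain genes above the median of clusters, H2-T-ps, H2-K2, H2-Q2, H2-Bl and H2-Q10 (a secreted form known from liver) differed between urushiol and oxazolone skin by -0.97, -0.79, -0.56, -0.47 and -0.28, and H2-M9 by 0.09, none of them called. H2-M3, which presents formylated bacterial peptides, lay at 6.18, 6.33 and 6.28 in urushiol, 7.10, 6.23 and 7.40 in oxazolone and 6.72, 6.91 and 6.61 in control skin, and was called lower in urushiol than in control skin without oxazolone array 2 (adjusted p = 0.0417).

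H2-M2 and H2-M5, genes of the M region at the end of the complex, fell with both allergens. H2-M2 lay at 7.09, 6.36 and 6.78 in urushiol, 7.31, 6.91 and 7.31 in oxazolone and 8.99, 9.39 and 9.27 in control skin. The controls were above all challenged arrays, and the differences from control were -2.47 ± 0.21 in urushiol skin (adjusted p = 0.00107) and -2.04 ± 0.21 in oxazolone skin (adjusted p = 0.00215). H2-M5 fell by 0.81 ± 0.14 (adjusted p = 0.0121) and by 0.69 ± 0.14 (adjusted p = 0.0213), with 5.63, 5.18 and 5.43 in urushiol, 5.60, 5.63 and 5.38 in oxazolone and 6.35, 6.31 and 6.01 in control skin. That oxazolone call needed 4 arrays, control arrays 1 and 2 and oxazolone arrays 1 and 3, and dropping one of them took adjusted p up to 0.0747.

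Of the class I-like genes, Mr1, which shows vitamin B metabolites to mucosal-associated invariant T cells, fell with both allergens. It lay at 9.96, 10.43 and 10.11 in urushiol, 10.36, 9.84 and 9.88 in oxazolone and 11.77, 11.91 and 11.12 in control skin, with no overlap with the controls. The differences were -1.43 ± 0.25 in urushiol skin (adjusted p = 0.0112) and -1.57 ± 0.25 in oxazolone skin (adjusted p = 0.00861). Cd1d1, which shows lipids to natural killer T cells, lay at 7.50, 7.43 and 7.68 in urushiol, 7.43, 7.50 and 7.43 in oxazolone and 6.71, 7.43 and 7.37 in control skin and was not called. H2-Ke6, a hydroxysteroid dehydrogenase gene that only lies in the complex, fell by 0.45 ± 0.09 in urushiol skin (adjusted p = 0.022, lost without control array 2 or urushiol array 1 or 2) and differed by -0.33 ± 0.09 in oxazolone skin (adjusted p = 0.0524, and 0.0262 without control array 3).

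Of the 12 class II chain genes, 4 fell in urushiol skin and 2 in oxazolone skin. These were 33.3% and 16.7% of the chains, where 6.43% and 6.92% of all genes were called lower. The 6 chains above the median of clusters lay below all controls on every urushiol and every oxazolone array. Of all genes above that median, 18.3% and 17.9% did so. Over all 12 chains the share was 50%, against 11.8% and 11.5% of all genes. H2-Ab1, the beta chain of I-A, lay at 11.21, 10.83 and 11.57 in urushiol, 12.18, 10.98 and 12.10 in oxazolone and 12.66, 12.74 and 12.33 in control skin. Its partner H2-Aa lay at 8.72, 7.80 and 8.31 in urushiol, 8.90, 8.10 and 8.72 in oxazolone and 9.20, 9.32 and 9.08 in control skin. H2-Eb1, the beta chain of I-E, lay at 8.76, 8.26 and 8.74 in urushiol, 9.22, 8.36 and 9.10 in oxazolone and 10.10, 9.87 and 9.52 in control skin. Every challenged array was below every control in all of these genes, and the allergens overlapped. In urushiol skin H2-Ab1 fell by 1.37 ± 0.34 (adjusted p = 0.038) and H2-Eb1 by 1.24 ± 0.27 (adjusted p = 0.0239), while H2-Aa differed by -0.92 ± 0.28 (adjusted p = 0.0625). In oxazolone skin H2-Ab1, H2-Aa and H2-Eb1 differed by -0.82 ± 0.34, -0.63 ± 0.28 and -0.94 ± 0.27 (adjusted p = 0.142, 0.158 and 0.0546), and H2-Eb1 was called there without control array 3 (adjusted p = 0.0373), with the filter on dim genes (0.0322), after quantile renormalisation (0.0373) and after median centring (0.0408). The filter and the centring also called H2-Aa lower in urushiol skin (adjusted p = 0.0365 and 0.0457). The urushiol calls of H2-Ab1 and H2-Eb1 were lost when any 1 urushiol array or control array 1 or 2 was dropped, and that of H2-Ab1 also when oxazolone array 3 was (adjusted p up to 0.12 and 0.0792). The intervals of urushiol minus oxazolone were -1.36 to 0.26 for H2-Ab1, -0.94 to 0.35 for H2-Aa and -0.94 to 0.32 for H2-Eb1. H2-Ea, below the median of clusters and listed as a pseudogene and known not to be made in the C57BL/6 strain, lay at 4.24 to 4.73 on all arrays.

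The genes of H2-DM, the peptide exchanger of the class II pathway, lay below control skin too. H2-DMb1 lay at 7.58, 7.28 and 7.52 in urushiol, 7.99, 7.44 and 7.93 in oxazolone and 8.62, 8.51 and 8.12 in control skin, H2-DMb2 at 6.89, 6.72 and 6.73, at 6.95, 6.64 and 6.95 and at 7.58, 7.32 and 7.23, and H2-DMa at 6.59, 6.46 and 6.59, at 6.40, 6.41 and 6.59 and at 6.69, 6.72 and 6.71. No challenged array reached the controls in any of these genes. H2-DMb1 fell by 0.96 ± 0.19 in urushiol skin (adjusted p = 0.0174) and differed by -0.63 ± 0.19 in oxazolone skin (adjusted p = 0.061, against 0.0239 without control array 3, 0.0378 with the filter on dim genes, 0.048 after quantile renormalisation and 0.0441 after median centring). H2-DMb2 fell by 0.60 ± 0.12 in urushiol (adjusted p = 0.0194) and 0.53 ± 0.12 in oxazolone skin (adjusted p = 0.0288), and H2-DMa by 0.24 ± 0.06 in oxazolone skin (adjusted p = 0.0436). H2-DMa differed by -0.16 ± 0.06 in urushiol skin (adjusted p = 0.132). The urushiol calls of H2-DMb1 and H2-DMb2 were lost when urushiol array 2 or 3 or control array 1 or 2 was dropped (adjusted p up to 0.0648 and 0.0663). The oxazolone call of H2-DMb2 was kept only in the fits without urushiol array 1, urushiol array 2 or control array 3, and that of H2-DMa only in the fit without oxazolone array 3 (adjusted p up to 0.122). H2-Oa and H2-Ob, the chains of H2-DO that holds H2-DM back in B cells, lay at 4.19 to 4.43 and 5.25 to 5.32 on all arrays.

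Ciita, the class II transactivator, lay at 6.10, 6.17 and 6.01 in urushiol, 6.32, 6.32 and 6.68 in oxazolone and 6.49, 6.48 and 6.36 in control skin. The urushiol arrays were below all others, and oxazolone overlapped the controls. Urushiol minus control was -0.35 ± 0.10 (adjusted p = 0.0637, and 0.0182 without oxazolone array 3), oxazolone minus control -0.00 ± 0.10, and urushiol minus oxazolone -0.35 ± 0.10 (adjusted p = 0.574). The filter on dim genes called Ciita lower in urushiol than in control skin (adjusted p = 0.0467). Of 7 genes of the RFX, NF-Y and CREB complex on class II promoters, 1 was lower in urushiol skin and 0 were called in oxazolone skin. Rfx5, its DNA-binding subunit, fell in urushiol skin by 0.50 ± 0.12 (adjusted p = 0.0313) and differed by -0.16 ± 0.12 in oxazolone skin. The others differed from control by -0.19 to 0.45 with urushiol and by -0.19 to 0.42 with oxazolone.

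Of the 4 endosomal enzymes of the class II pathway, Ctss and Ctsl rose with both allergens. Cathepsin S (Ctss), which makes the last cut of the invariant chain, lay at 13.78, 12.72 and 12.89 in urushiol, 14.52, 12.80 and 13.46 in oxazolone and 11.39, 11.25 and 11.16 in control skin. Cathepsin L (Ctsl), which does so in thymic epithelium and is also an enzyme of keratinocytes, lay at 15.93, 15.09 and 15.23 in urushiol, 15.32, 15.22 and 15.34 in oxazolone and 13.37, 13.38 and 13.79 in control skin. All challenged arrays were above all controls. Ctss rose by 1.86 ± 0.45 in urushiol (adjusted p = 0.0341) and 2.33 ± 0.45 in oxazolone skin (adjusted p = 0.0173), and Ctsl by 1.90 ± 0.22 (adjusted p = 0.00323) and 1.78 ± 0.22 (adjusted p = 0.00411). The urushiol call of Ctss was lost without any 1 control array, any 1 urushiol array or oxazolone array 3 (adjusted p up to 0.106), and its oxazolone call when oxazolone array 3, control array 1 or control array 2 was dropped (adjusted p up to 0.0603). Of 5 neutrophil markers, 4 rose with both allergens. In urushiol skin S100a8, S100a9, Csf3r and Cxcr2 rose by 10.58 ± 0.78, 9.98 ± 0.61, 2.65 ± 0.27 and 2.83 ± 0.24. In oxazolone skin they rose by 8.81 ± 0.78, 8.23 ± 0.61, 2.49 ± 0.27 and 2.51 ± 0.24. Ly6g differed by 0.10 ± 0.10 in urushiol and 0.27 ± 0.10 in oxazolone skin and was not called. The part of neutrophils in the Ctss difference was not tested. Lgmn, an asparaginyl endopeptidase, lay at 12.41, 11.92 and 12.31 in urushiol, 12.86, 11.84 and 11.70 in oxazolone and 11.57, 11.42 and 10.88 in control skin, above the controls on every challenged array but not called (adjusted p = 0.106 for urushiol, 0.0442 without oxazolone array 1, and 0.125 for oxazolone). Ifi30 (GILT), a thiol reductase induced by interferon gamma, differed by 0.33 ± 0.28 in urushiol and -0.24 ± 0.28 in oxazolone skin. Of 6 other endosomal genes, 1 was higher and 1 lower with each allergen: cathepsin B (Ctsb) rose by 0.76 ± 0.10 in urushiol and 0.62 ± 0.10 in oxazolone skin, and March8, a ubiquitin ligase that removes class II molecules from the surface, fell by 0.39 ± 0.04 and 0.32 ± 0.04.

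**Figure D3:**
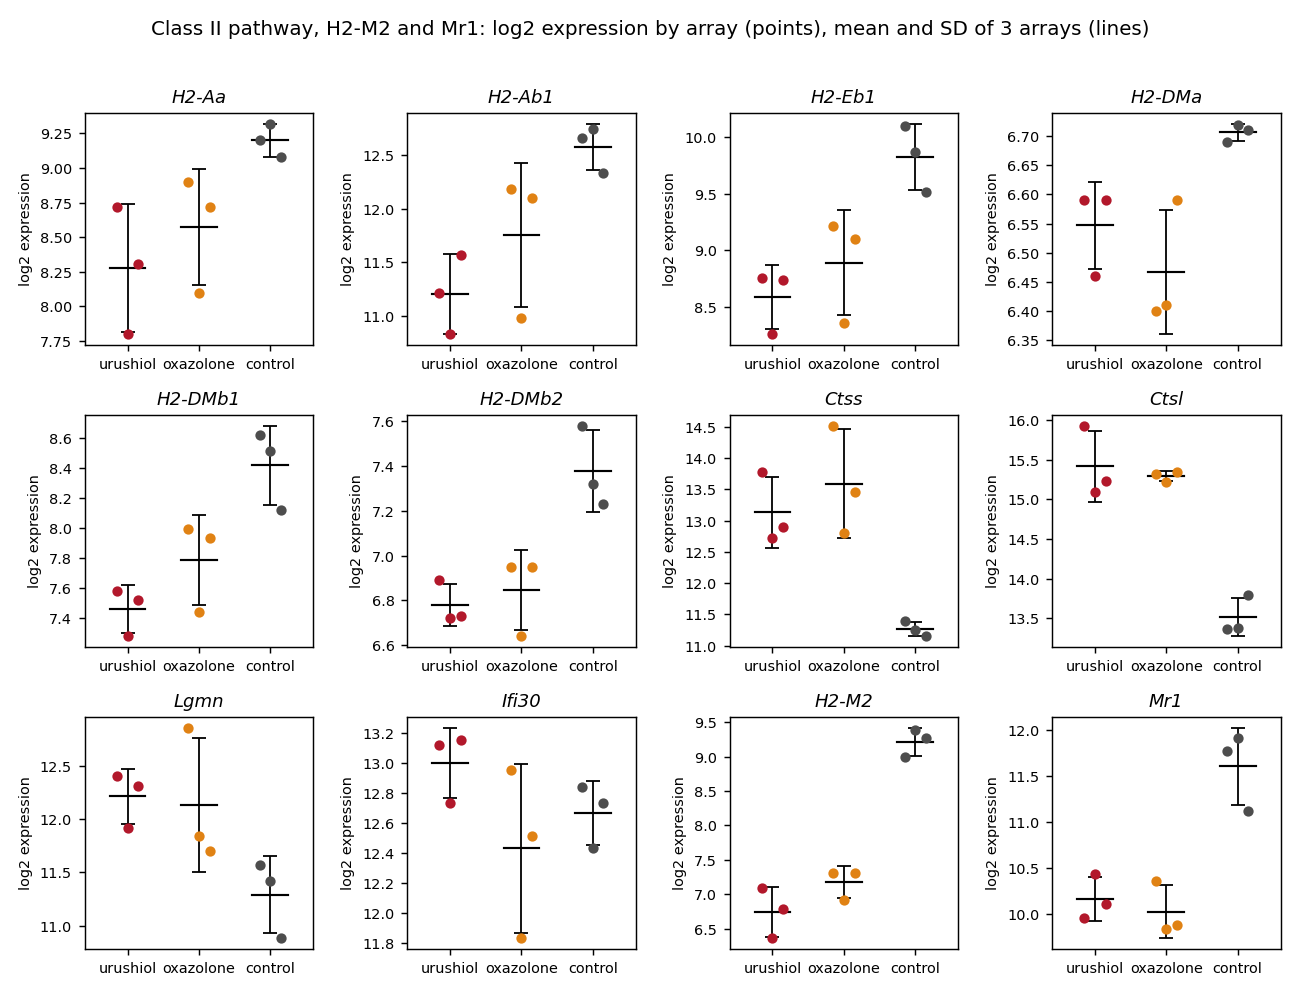
Log2 expression of 10 class II pathway genes and of H2-M2 and Mr1 on each array (points; urushiol, oxazolone and control from left to right, replicates 1 to 3 from left to right in each) with the mean and SD of 3 arrays. The class II chains, H2-M2 and Mr1 lie below the controls on all challenged arrays, and Ctss, Ctsl and Lgmn lie above them, as with 15.09 to 15.93 against 13.37 to 13.79 for Ctsl.

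The markers of cells that carry class II molecules moved unevenly. Of 10 dendritic and Langerhans cell markers, 1 was lower with each allergen and none higher. Cd207 (langerin), the marker of Langerhans cells, lay at 6.48, 6.15 and 6.61 in urushiol, 6.25, 6.56 and 6.07 in oxazolone and 7.09, 7.29 and 7.02 in control skin. Cd207 fell by 0.72 ± 0.16 in urushiol (adjusted p = 0.0276) and by 0.84 ± 0.16 in oxazolone skin (adjusted p = 0.0171). Their mean log2 level was 6.31 to 6.48 in urushiol, 6.36 to 6.51 in oxazolone and 6.46 to 6.58 in control skin, with Flt3, Zbtb46, Xcr1 and Clec9a below the median of clusters. Of 8 macrophage and monocyte markers, 2 were higher in urushiol skin (Fcgr1 and Mrc1), 1 in oxazolone skin (Fcgr1) and none lower, with means of 10.3 to 10.8, 10.3 to 11.1 and 9.92 to 10.3. The 3 measured B cell markers lay below the median of clusters, with means of 4.76 to 4.82 in urushiol, 4.74 to 4.90 in oxazolone and 4.80 to 4.84 in control skin. The part of these cell types in the class II differences was not tested.

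Between the allergens no member was called, where 0.0166% of all genes were called (5 of 30142, with 0.00664% higher and 0.00995% lower), and 24 members had an unadjusted p under 0.05, 41.4% against 5.88% of all genes. Every urushiol array lay below every oxazolone array in 20 members, 34.5% of them against 4.39% of all genes, and above every oxazolone array in 3, where 5.35% of all genes did so (9.74% in either direction). Above the median of clusters the shares lying below were 47.6% of members and 5.51% of genes. Of these 20, 19 belonged to class I and 1, Ciita, to class II. They made up 19 of 38 class I members (50%) and 1 of 17 class II members (5.88%). Calr, Canx and Pdia3 were the members whose urushiol arrays lay above all oxazolone arrays. The median of urushiol minus oxazolone was -0.52 over class I members, -0.02 over class II members and -0.00 over all genes. Removing oxazolone array 3 left 3 members called lower in urushiol than in oxazolone skin (Tap1, Tap2 and Tapbp), removing oxazolone array 2 left 1 (H2-T10), and no other array did so.

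Class I members had a median difference of -0.10 in urushiol and 0.47 in oxazolone skin, and class II members -0.03 and -0.01, beside 0.04 and 0.06 over all genes. Restricted to members above the median of clusters, the medians were -0.23 and 0.67 for 28 class I members and -0.35 and -0.24 for 11 class II members, with 0.07 and 0.08 for all such genes. The oxazolone arrays of 22 members lay above all controls, 37.9% of the members against 21.3% of all genes, and 18 of the 22 were class I. Above the median of clusters the shares were 47.6% of members and 29.2% of genes. The count was 13 after quantile renormalisation and 14 after median centring. The share of all genes was not computed in those settings, so an excess over it is not known there. The urushiol arrays of 21 members lay below all controls, 36.2% against 11.8% of all genes, 12 of them class I and 7 class II. That count was 29 after quantile renormalisation and 31 after median centring, where the share of all genes was not computed either. Without oxazolone array 3 the class I median for oxazolone was 0.23, and without urushiol array 2 that for urushiol was -0.00.

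The oxazolone arrays differed among themselves in class I genes in one order. Array 3 was the highest for 22 of the 28 class I members above the median of clusters and array 2 the lowest for 26, where these arrays held those places for 26.2% and 32.9% of all such genes. The class I medians over the control mean were -0.01, -0.40 and -0.12 on urushiol arrays 1 to 3 and 0.66, 0.24 and 1.25 on oxazolone arrays 1 to 3. In the 12 supply and loading genes oxazolone array 2 was lowest each time, array 3 highest for 10, and the oxazolone medians were 0.80, 0.47 and 1.82. Of 11 class II members, 8 were also lowest on oxazolone array 2, but 7 were highest on oxazolone array 1. Urushiol array 2 was the lowest of its group for 20 of the 28 class I and 10 of the 11 class II members, where 34.3% of all such genes were lowest there. Within each array, the class I median minus the class II median was 0.33, -0.12 and 0.32 in urushiol, 0.96, 0.97 and 1.41 in oxazolone and -0.13, -0.04 and 0.13 in control skin, so all oxazolone arrays lay above the others on this measure. With means in place of medians the values were -0.27, -0.10 and -0.12 in urushiol, 0.20, 0.43 and 0.98 in oxazolone and -0.13, -0.03 and 0.16 in control skin, where the lowest oxazolone array was close to control array 3 and all urushiol arrays were below 0.

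**Figure D4:**
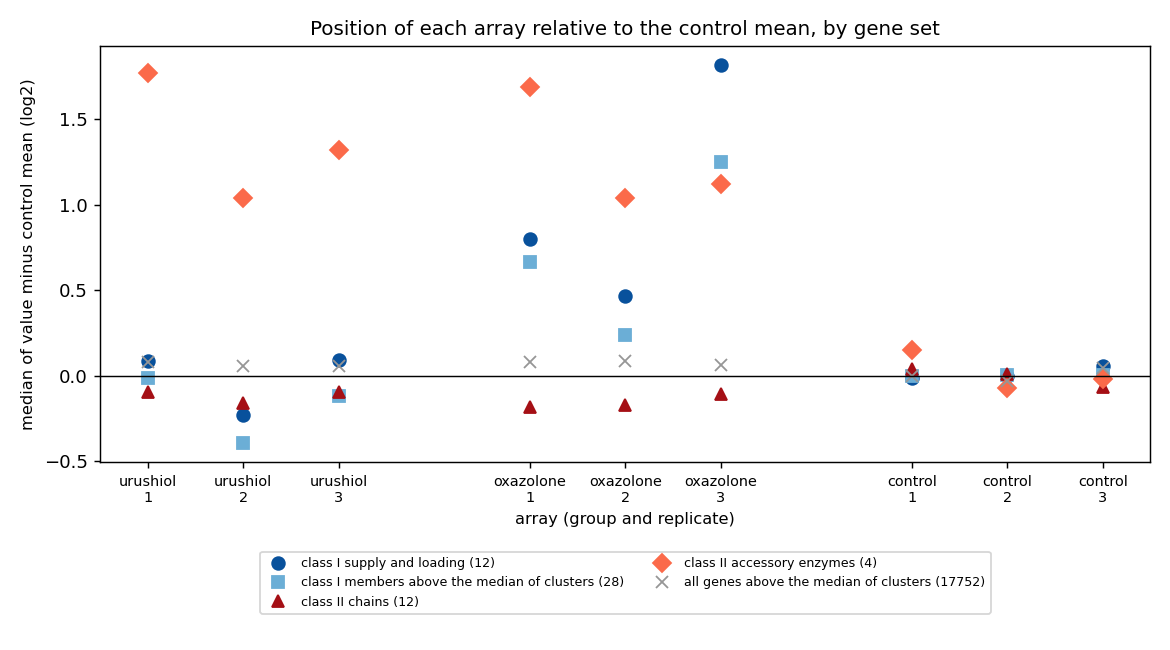
Median over the genes of a set of the log2 value minus the control mean, for each array (urushiol, oxazolone and control from left to right), with the number of genes in brackets. Class I supply and loading genes lie at -0.23 to 0.09 on the urushiol arrays and at 0.47 to 1.82 on the oxazolone arrays, class II accessory enzymes are raised with both allergens, and the 12 class II chains, 6 of which lie below the median of clusters, stay between -0.19 and 0.04.

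Of 9 interferon gamma signalling genes, 1 was higher in urushiol skin, and 5 were higher and 1 lower in oxazolone skin. Ifng itself lay at 4.84, 4.38 and 4.62 in urushiol, 6.93, 6.98 and 8.07 in oxazolone and 4.46, 4.80 and 4.46 in control skin, and rose in oxazolone skin by 2.75 ± 0.31 (adjusted p = 0.0028), with urushiol minus control at 0.04 ± 0.31. Irf1, a factor that binds interferon response elements, lay at 7.37, 6.87 and 6.85 in urushiol, 10.82, 10.34 and 12.22 in oxazolone and 7.29, 7.38 and 7.11 in control skin. It rose by 3.87 ± 0.44 in oxazolone skin (adjusted p = 0.00305) and differed by -0.23 ± 0.44 in urushiol skin. The kinase Jak2 rose with both, by 1.06 ± 0.20 in urushiol and 2.14 ± 0.20 in oxazolone skin, Irf8 and the inhibitor Socs1 rose in oxazolone skin by 0.87 ± 0.18 and 0.59 ± 0.14, and the receptor chain Ifngr1 fell there by 1.03 ± 0.28. Urushiol minus oxazolone was -2.71 ± 0.31 for Ifng and -4.10 ± 0.44 for Irf1, both at an adjusted p of 0.0767. Oxazolone array 3 was the highest of its group for Ifng, Irf1, Irf8 and Jak2 but not for Socs1, and array 2 was the lowest for Irf1 and Irf8 but not for Ifng, Jak2 or Socs1. It was the highest for Socs1.

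The CD8 chain Cd8a lay at 5.07, 4.76 and 5.07 in urushiol, 6.85, 5.42 and 7.90 in oxazolone and 4.60, 4.82 and 4.69 in control skin, and rose in oxazolone skin by 2.02 ± 0.55 (adjusted p = 0.0464). The other CD8 chain, Cd8b1, differed there by 1.68 ± 0.48 (adjusted p = 0.0535) and was not called. Of 6 T cell markers, 1 was higher and 2 lower in urushiol skin and 1 higher and 1 lower in oxazolone skin. Cd3e fell by 1.87 ± 0.24 in urushiol and by 1.10 ± 0.24 in oxazolone skin. In urushiol skin Cd4 rose by 0.88 ± 0.15 (adjusted p = 0.0121) and Cd3g fell by 1.25 ± 0.29 (adjusted p = 0.0302). Neither was called in oxazolone skin. The mean level of the 6 T cell markers was 5.74 to 5.94 in urushiol, 5.96 to 7.24 in oxazolone and 6.15 to 6.18 in control skin. Among them Cd8a alone lay below the median of clusters. The part of T cell number in the class I differences was not tested.

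Co-stimulatory and inhibitory ligands, which T cells read beside the MHC molecule, were higher for 2 of 6 genes in urushiol and 5 of 6 in oxazolone skin. Cd80 rose by 2.13 ± 0.17 in urushiol and 2.57 ± 0.17 in oxazolone skin. Cd274 (PD-L1), an inhibitory ligand, lay at 9.23, 8.57 and 8.53 in urushiol, 11.96, 11.39 and 13.40 in oxazolone and 6.76, 7.37 and 7.12 in control skin. It rose in oxazolone skin by 5.17 ± 0.50 (adjusted p = 0.0017) and differed by 1.69 ± 0.50 in urushiol skin (adjusted p = 0.0594). Icosl rose in urushiol skin by 0.97 ± 0.24, and Cd86, Cd40 and Pdcd1lg2 rose in oxazolone skin by 0.96 ± 0.15, 0.81 ± 0.22 and 1.08 ± 0.17.

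**Figure D5:**
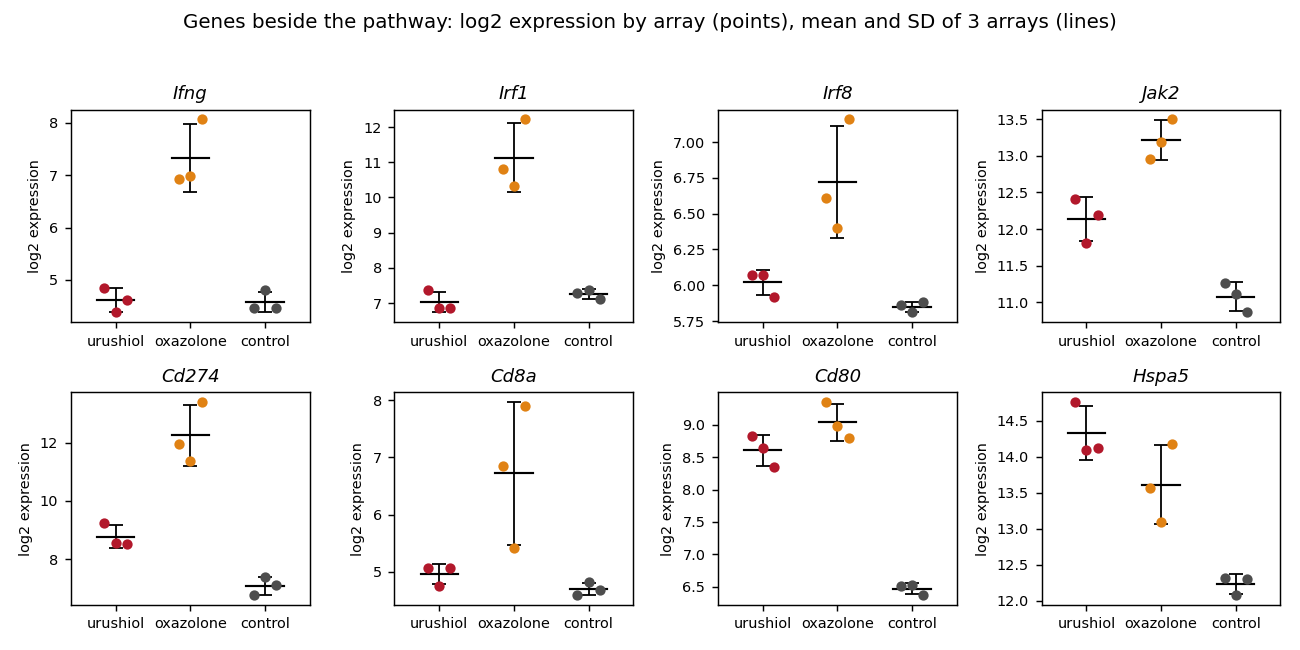
Log2 expression of 8 genes that are not members (interferon gamma signalling, ligands of T cells, the CD8 chain Cd8a and the chaperone Hspa5) on each array (points; urushiol, oxazolone and control from left to right) with the mean and SD of 3 arrays. Ifng, Irf1 and Cd274 are raised in oxazolone skin, with Ifng at 6.93 to 8.07 against 4.46 to 4.80 in control skin, while Cd80 and Hspa5 are raised with both allergens.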

How the data were processed

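Total RNA of whole neck skin was hybridised to 9 mouse transcriptome arrays. The deposited values are log2 expression per transcript cluster, and per the submitters' processing notes RMA, Affymetrix Expression Console 1.4 and Transcriptome Analysis Console were used; the role and order of these tools are not given in the sources used here. Of 72688 features, 6732 array controls were left out and 30604 clusters carried 1 gene symbol in the platform annotation, which gave 30142 genes after 827 symbols were updated through Entrez identifiers to RefSeq names. The brightest cluster by the mean over 9 arrays stood for a gene.

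The 3 groups came from the labels, which call the samples biological replicates. One limma 3.58.1 fit (R 4.3.3) of all 9 arrays gave the 3 contrasts, with p-values adjusted by Benjamini-Hochberg over 30142 genes and a threshold of 0.05, and was tested on simulated data. The number of arrays limits the precision. Every member could be named. Of the other pathway lists, the genes called against control were named, with some that were not called. The called dendritic cell, macrophage, T cell and neutrophil markers were named too. Keratinocyte, fibroblast, skeletal muscle and hair follicle markers were not named singly. Members and gene lists were chosen with earlier results of these data known.

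Labels share replicate numbers 1 to 3. Same-numbered urushiol and oxazolone arrays correlated at 0.201, 0.197 and 0.124 in their deviations from the group means, so these were treated as pairs in an alternative fit; controls did not pair with either. Alternatives also included filtering out dim genes, quantile renormalisation, median centring, a trended prior variance, 2 groups alone and leaving out each array.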

Additional observations from a re-analysis of the deposited data

Results flagged for a closer look

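In 6 members all oxazolone arrays lay above all controls while all urushiol arrays lay below them, 10.3% of the 58 against 0.126% of all genes. For Tapbpl and H2-T10 the oxazolone arrays passed the controls by little (7.85 against 7.83 and 8.34 against 8.32). The count was made on the deposited values only. Urushiol minus oxazolone was -2.37 for Tap1, -2.11 for H2-T10, -1.52 for Tapbp, -1.28 for Psmb9, -1.14 for Tapbpl and -1.06 for Tap2 on the log2 scale. In the limma fit of 9 arrays the adjusted p-values of these differences were 0.11, 0.403, 0.491, 0.38, 0.784 and 0.358, so none passed the threshold. Without oxazolone array 3 the differences of Tap1, Tap2 and Tapbp passed it (adjusted p = 0.0122, 0.0235 and 0.0264), and without oxazolone array 2 that of H2-T10 (0.0478).

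Outside the members, 13 transcript clusters carry several symbols, at least one of them named by the rule. On 9 of these clusters every urushiol array lay below every oxazolone array. All oxazolone arrays lay above all controls on 5, all urushiol arrays lay below all controls on 7 and above them on 1. The cluster with the highest control mean lay below all controls with both allergens. Its means were 13.66 in urushiol, 13.84 in oxazolone and 15.31 in control skin. The values of a cluster with several symbols cannot be given to 1 gene.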

How the results depend on the processing

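No alternative turned the direction of a called member. With 1 array left out, members higher in oxazolone than in control skin numbered 1 to 10 (6 with all arrays) and lower 2 to 8 (5), higher in urushiol than in control skin 1 to 6 (5) and lower 3 to 12 (8), and lower in urushiol than in oxazolone skin 0 to 3 (0). Class I medians ranged from 0.23 to 0.64 for oxazolone, from -0.15 to -0.00 for urushiol and from -0.68 to -0.39 for urushiol minus oxazolone, and class II medians from -0.06 to -0.00, -0.04 to -0.02 and -0.12 to 0. Oxazolone arrays lay above all controls for 22 to 31 members, urushiol arrays below all controls for 21 to 27 and below all oxazolone arrays for 20 to 29. The filter on dim genes gave 13 higher and 8 lower for oxazolone, with class I medians of 0.67 for oxazolone and -0.77 for urushiol minus oxazolone and class II medians of -0.24 for oxazolone, -0.35 for urushiol and -0.30 between them. The medians moved because 16 members, none of them called, leave the sets, and the added calls came among the other 42 with fewer genes tested. Quantile renormalisation gave 8 lower for oxazolone, 2 higher for urushiol, a class II median of -0.0804 for oxazolone and 13 members above all controls. Median centring gave 8 lower for oxazolone, class II medians of -0.0833 for urushiol and -0.08 for oxazolone and 14 members above all controls. Urushiol arrays lay below all controls for 29 members after quantile renormalisation and 31 after median centring. Comparing 2 groups alone gave 2 higher and 3 lower for oxazolone, and 3 higher and 14 lower for urushiol. The cause of the other shifts was not tested. A fit with the replicate number as a block over the 6 challenged arrays left 0 members called between the allergens, and over 9 arrays the block gave 7 higher and 5 lower for oxazolone and 5 higher and 9 lower for urushiol. For oxazolone that block lost the calls of H2-DMa and H2-Q3 (adjusted p = 0.0513 and 0.0658) and gained those of B2m, H2-Eb1 and Pdia3 (0.0439, 0.0433 and 0.0348), and for urushiol it gained H2-Aa (0.0489). The files hold no measure of background, so signal over background is not known for any member.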
